A study of Mus musculus with 3 samples.

Results

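The 9 genes described here encode the IL-1 family ligands Il1a, Il1b and Il18, the receptor antagonist Il1rn, the decoy receptor Il1r2, the IL-18 receptor chains Il18r1 and Il18rap, the cytokine Tnf and its receptor Tnfrsf1b. They were taken by name from the 32285 gene rows of each matrix, with earlier results of these data known. They were measured by single-cell RNA-Seq in CD45+ (immune) cells that had been sorted out of the sciatic nerve of NOD.AireGW/+ mice with neuropathy. Such animals have 1 copy of a partial loss-of-function Aire allele in all their cells, on the autoimmunity-prone NOD background, and spontaneously develop inflammation of peripheral nerves. The study's methods describe the mice as female, and the nerves were perfused and digested with collagenase before sorting. The labels give 3 libraries in 1 group. Library 3 is a pool of 2 mice with no mark to separate them, while libraries 1 and 2 come from 1 mouse apiece. Because there is no healthy comparison group in these data, genes were compared between cell classes of the same libraries, and whether any level differs from that in a healthy nerve was not tested.

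IL-1β and IL-1α act on the same signalling receptor, Il1r1, which pairs with Il1rap and signals through Myd88 to NF-κB. IL-1β and IL-18 are made as precursors that caspase-1, activated in inflammasomes, cuts into their active forms, so the RNA level does not give the amount of active cytokine. Il1rn occupies the receptor without signalling, Il1r2 binds the ligands without signalling, and Il18bp captures free IL-18. IL-18 acts through Il18r1 together with Il18rap and is known for driving interferon-γ in T and NK cells. TNF acts on Tnfrsf1a, found on most cells, and on Tnfrsf1b, which is known for its high level on regulatory T cells.

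Cells were placed in 8 classes by marker genes, none of which is among the 9 genes. A class called here macrophage held C1qa, C1qb and C1qc, monocytes held Ly6c2, Vcan, F13a1, Chil3 or Fn1, and dendritic cells held Flt3, Zbtb46, Xcr1, Clec9a, Cd209a or Fscn1, each beside Lyz2, Csf1r or Cst3. The CD4, CD8, Foxp3, gamma delta and NK classes were set by Cd3 chains with Cd4, Cd8a or Cd8b1, Foxp3, and Trdc with a gamma chain constant gene, and by Ncr1 with at most 1 Cd3 UMI. The libraries gave 3848, 8256 and 1533 cells, of which 1895, 4115 and 543 fell in the 8 classes. B cells, another 603 cells, served as a further class for comparison. A total of 47.5% of all cells stayed outside every class, mostly because they carried markers of 2 lineages or T cell genes without a clear subset. Median depth was 3956, 4632.5 and 1726 UMIs per cell, where a UMI counts 1 captured transcript, so library 3 was the shallowest and its zeros weigh least. Trbc2, a marker that the gates did not use, was at most 13.9 CPM in monocytes, 1.83 CPM in dendritic cells and 1.20 CPM in macrophages. Here CPM is the UMIs of a gene per 1000000 UMIs summed over the cells of a class in a library. CD4 cells held Trbc2 at 294 to 576 CPM, gamma delta cells at 289.5 to 322.1 CPM and NK cells at 87.15 to 184.2 CPM. It thus did not separate gamma delta from CD4 cells. Gamma delta cells also held Cd8a at 101.3 to 298.4 CPM and Trac at 62.74 to 135.1 CPM. Foxp3 was at 524 to 661 CPM in its class and at 0 in CD4 and CD8 cells, which the gate itself required. NK cells also held Trdc at 73.7 to 172 CPM, against 335 to 405 CPM in gamma delta cells. Neutrophil genes were mixed in the myeloid classes: S100a9 and Retnlg were at 0 in all 3 and Mmp8 was at most 9.30 CPM, while S100a8 was at 23.3 to 78.2 CPM in monocytes and 21.8 CPM in macrophages, and Csf3r, which monocytes also express, was at 29.3 to 58.1 CPM in monocytes and 52.3 CPM in macrophages. Their part in the results was not tested.

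Macrophages were unevenly spread, and results that use them rest on library 2. That library held 1797 macrophages, and libraries 1 and 3 held 7 and 3. Monocytes numbered 56, 172 and 30, dendritic cells 43, 192 and 13, CD4 cells 538, 643 and 161, CD8 cells 841, 797 and 229, Foxp3 cells 304, 316 and 82, gamma delta cells 37, 104 and 9, and NK cells 69, 94 and 16 in libraries 1, 2 and 3. Classes with fewer than 10 cells in a library were left out there, which removed the macrophages of libraries 1 and 3 and the gamma delta cells of library 3. In the tests that involve macrophages, the single macrophage sum is assumed to vary like the other sums.

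The genes lie in neighbourhoods of the mouse genome that bear on how they are compared. On GRCm38, Il1a (chr2:129299610-129309972, minus strand) and Il1b (chr2:129364570-129371139, minus strand) are neighbours 54597 bases apart, and Il1rn (chr2:24336853-24351494, plus strand) lies far away on the same chromosome. Chromosome 1 holds a run of receptor genes on the plus strand in the order Il1r2 (chr1:40074079-40125231), Il1r1, Il1rl2, Il1rl1, Il18r1 (chr1:40465552-40500854) and Il18rap (chr1:40515362-40551705). Only 136 bases separate the annotated end of Il1rl1 from the start of Il18r1. Il18 is on chromosome 9 (chr9:50554827-50581840, plus strand), Tnf on chromosome 17 (chr17:35199381-35202007, minus strand) and Tnfrsf1b on chromosome 4 (chr4:145213463-145246870, minus strand). All 9 are annotated as protein coding.

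The 250 bases before the RefSeq start of 4 of the genes are shown because these stretches overlap no annotated exon and hold a motif match close to the start. All 9 genes had an entry. Short motifs were searched on both strands of GRCm38.p6, and capitals mark each match. They were the kappa B consensus, the PU.1 letters GAGGAAGT, the AP-1 letters TGANTCA, the C/EBP letters TTGCNNAA, the T-box letters AGGTGTGA and the TATA box letters TATAAA.
Il1a, chr2:129309973-129310222, minus strand: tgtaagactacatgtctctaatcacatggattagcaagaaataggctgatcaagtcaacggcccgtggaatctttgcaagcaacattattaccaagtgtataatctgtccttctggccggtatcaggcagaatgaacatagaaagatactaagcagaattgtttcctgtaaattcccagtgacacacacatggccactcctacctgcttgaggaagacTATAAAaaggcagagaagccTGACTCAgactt
Il1b, chr2:129371140-129371389, minus strand: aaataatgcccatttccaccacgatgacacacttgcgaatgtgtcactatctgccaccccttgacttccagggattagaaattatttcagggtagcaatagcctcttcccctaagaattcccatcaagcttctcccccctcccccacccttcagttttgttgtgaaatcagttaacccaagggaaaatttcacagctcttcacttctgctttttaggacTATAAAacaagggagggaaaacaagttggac
Tnf, chr17:35202008-35202257, minus strand: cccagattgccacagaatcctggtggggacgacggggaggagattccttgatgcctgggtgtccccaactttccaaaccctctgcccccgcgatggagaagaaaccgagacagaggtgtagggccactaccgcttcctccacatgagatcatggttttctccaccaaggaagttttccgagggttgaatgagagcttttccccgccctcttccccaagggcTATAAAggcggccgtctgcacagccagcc
Il18rap, chr1:40515112-40515361, plus strand: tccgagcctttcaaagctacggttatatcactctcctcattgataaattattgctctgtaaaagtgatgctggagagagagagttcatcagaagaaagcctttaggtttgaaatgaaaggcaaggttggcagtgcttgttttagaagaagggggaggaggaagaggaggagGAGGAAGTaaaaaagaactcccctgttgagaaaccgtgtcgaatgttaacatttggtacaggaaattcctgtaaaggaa
The TATA box letters began 32 bases before the start of Il1a, 31 before that of Il1b and 29 before that of Tnf, and were found in 13% of 27025 such windows, 1 for each gene. The AP-1 letters, present in 6.87% of windows, began 12 bases before the Il1a start. The PU.1 letters, present in 2.44% of windows, began 79 bases before the start of Il18rap. The shares of windows count a match at any position and on either strand, and not at the places given. The remaining matches, in windows not shown, were the TATA box letters on the minus strand 175 bases before the start of Il18 and the AP-1 letters 141 bases before that of Il1rn, in a window that overlaps an Il1rn exon. A match describes letters only, and the absence of the kappa B consensus from these windows says nothing of sites elsewhere. These sequences are given as the genomic setting of the levels that follow, and no binding was measured.

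**Figure D1:**
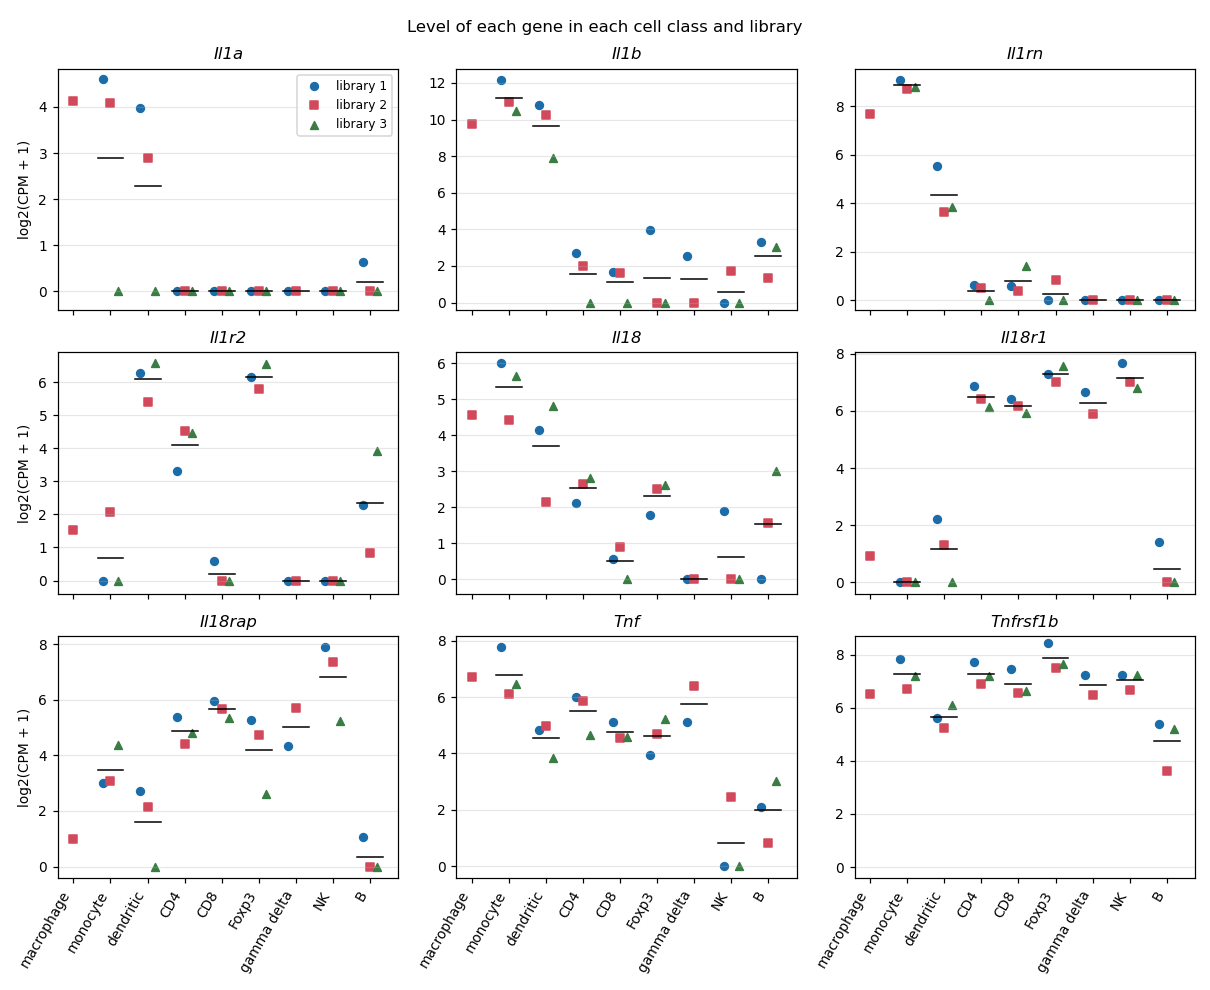
Level of the 9 genes in each class and library, as log2(CPM + 1), with a line at the mean of the log values where a class had more than 1 library. Il1b, Il1rn, Il1a and Il18 are high on the left, in the myeloid classes, Il18r1 and Il18rap are high in the T and NK classes, Il1r2 is high in dendritic and Foxp3 cells, and Tnfrsf1b is found in every class.

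Il1b, the main secreted IL-1 ligand of inflamed tissue, was a myeloid transcript here. Monocytes held 4632, 1960 and 1408 CPM in libraries 1, 2 and 3, dendritic cells 1804, 1200 and 242 CPM, and library 2 macrophages 856 CPM. Lymphoid classes lay between 0 and 14.6 CPM. The groups did not overlap, and the myeloid classes exceeded the lymphoid classes by 9.97 ± 0.25 (SE) on the log2 scale (edgeR quasi-likelihood test with library as a block, adjusted p = 1.2e-24, higher in 3 of 3 libraries). As a share of the monocyte level of the same library, Il1b in lymphoid classes was at most 0.315%. Lyz2, a gene that T and NK cells should lack, was at most 0.554%. The lymphoid gates capped Lyz2, Csf1r and Cst3 together below 10 per 10000 UMIs of a cell. The Lyz2 share was thus held low by the gates and cannot measure carried-over RNA. In libraries 2 and 3 the Il1b share was at or below the Lyz2 share in each of these classes. In library 1 it was above it in CD4 cells (0.121% against 0.0769%), CD8 cells (0.0478% against 0.0308%), Foxp3 cells (0.315% against 0.0554%) and gamma delta cells (0.104% against 0%). The part of carried-over RNA was not tested. The highest of these values, 14.6 CPM in the Foxp3 cells of library 1, came from 18 UMIs in 2 of 304 cells.

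Il1rn, the receptor antagonist, shared the monocytes and macrophages with Il1b but not the dendritic cells. It was at 551, 419 and 450 CPM in monocytes, at 207 CPM in library 2 macrophages and at 45.9, 11.4 and 13.5 CPM in dendritic cells. The monocyte libraries lay close together, with a mean of 473 ± 69.2 CPM (SD, n = 3), whereas those of Il1b spread more widely, at 2667 ± 1724 CPM. Across all lymphoid sums only 7 Il1rn UMIs were counted, and the myeloid minus lymphoid difference was 9.51 ± 0.36 (SE) on the log2 scale (edgeR, adjusted p = 3.0e-18).

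Il1a, which acts from inside the cell and at the membrane as well as after release, was sparse. It was at 23.3, 16.0 and 0 CPM in monocytes, 14.7, 6.42 and 0 CPM in dendritic cells and 16.6 CPM in library 2 macrophages. No Il1a UMI was counted in any CD4, CD8, Foxp3, gamma delta or NK sum. Against a floor of 3 UMIs over all lymphoid sums the pooled myeloid level was at least 86.7-fold higher. The difference passed the edgeR test (adjusted p = 8.2e-10) and not that of DESeq2 (adjusted p = 0.14), and library 3, with no UMI in either arm, did not show its direction. The 7 macrophages of library 1, which enter no test, held 18 Il1a UMIs in 2 cells.

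Il18, the ligand of the other receptor pair, was likewise highest in monocytes and macrophages but at a low level. It was at 62.8, 20.3 and 48.9 CPM in monocytes, 22.7 CPM in library 2 macrophages and 16.5, 3.46 and 26.9 CPM in dendritic cells, and at most 6 CPM in the lymphoid classes. Myeloid classes exceeded lymphoid ones by 4.68 ± 0.50 (SE, log2, edgeR, adjusted p = 2.0e-09). In this comparison 6 of the 9 genes were higher in myeloid classes and 2 were lower, where 27.8% of 10212 tested genes were higher and 25.9% were lower (DESeq2 called 53.3% in either direction). Among the 6, Il1r2 was the least firm, and Foxp3 cells overlapped with dendritic cells in it: its difference of 2.77 ± 0.94 (SE, adjusted p = 0.014) was lost with stricter gates (2.09, adjusted p = 0.13), with thinned cells (2.11, adjusted p = 0.12) and without library 2 and the macrophages (1.19, adjusted p = 1.0). Monocytes held Il1r2 at 0, 3.21 and 0 CPM and library 2 macrophages at 1.88 CPM. Both lay below CD4 cells, at 9, 22.2 and 21.0 CPM, and Foxp3 cells, at 69.8, 54.4 and 92.8 CPM. Of the myeloid classes, only dendritic cells held more Il1r2 than CD4 cells. The median log2 difference of the 9 genes was 2.77 and that of all genes tested was -0.05.

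Tnf differed in kind from the IL-1 ligands, because T cells held it too. Monocytes were at 216, 68.4 and 88.0 CPM, library 2 macrophages at 104 CPM, CD4 cells at 63.5, 56.5 and 24.0 CPM, and gamma delta cells at 33.8 and 82.3 CPM in libraries 1 and 2. CD8 cells were at 22.6 to 33.9 CPM, Foxp3 cells at 14.6 to 36.1 CPM and dendritic cells at 13.5 to 30.6 CPM. NK cells were the lowest of the 8 classes, with 2 Tnf UMIs in 179 cells and 0, 4.54 and 0 CPM, near the B cells at 3.31, 0.778 and 7.07 CPM. The myeloid classes together exceeded the lymphoid ones by 2.19 ± 0.25 (SE, log2, edgeR, adjusted p = 9.6e-09). That comparison weights each class alike on the log scale, so NK cells near 0 lower the lymphoid side. It is therefore not the difference from T cells, and no fit without NK cells was made. The classes also interleaved: dendritic cells lay below CD4 cells in each library, and gamma delta cells of library 2 lay above the monocytes of that library.

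Of the receptors, Tnfrsf1b was the most evenly spread. It ranged from 36.6 CPM in dendritic cells of library 2 to 347 CPM in Foxp3 cells of library 1 within the 8 classes, and the myeloid minus lymphoid difference was -0.18 (95% interval -0.42 to 0.05, edgeR, adjusted p = 0.21). That call depended on macrophages and scaling: with macrophages left out the difference was -0.49 (adjusted p = 0.0018) and without the TMM scaling factor -0.62 (adjusted p = 3.4e-04). The scaling itself moved the median of all genes in this comparison from -0.05 to -0.47.

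Il18r1 and Il18rap, the binding and the signalling chain of the IL-18 receptor, were lymphoid genes. Il18r1 was at 0 in monocytes of all 3 libraries, at 0 to 3.67 CPM in dendritic cells and at 0.904 CPM in macrophages, against 58.6 to 202 CPM over the T and NK sums, and the myeloid minus lymphoid difference was -7.07 ± 0.32 (SE, log2, edgeR, adjusted p = 8.3e-18). Il18rap differed by -3.46 ± 0.27 (adjusted p = 2.0e-12). It was less cleanly absent from monocytes, which held it at 6.98, 7.48 and 19.6 CPM from 12 UMIs in all, with no Il18r1 UMI beside it. Trbc2, a T cell gene that the gates did not use, was at 0 to 13.9 CPM in monocytes, and the part of carried-over RNA was not tested.

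**Figure D2:**
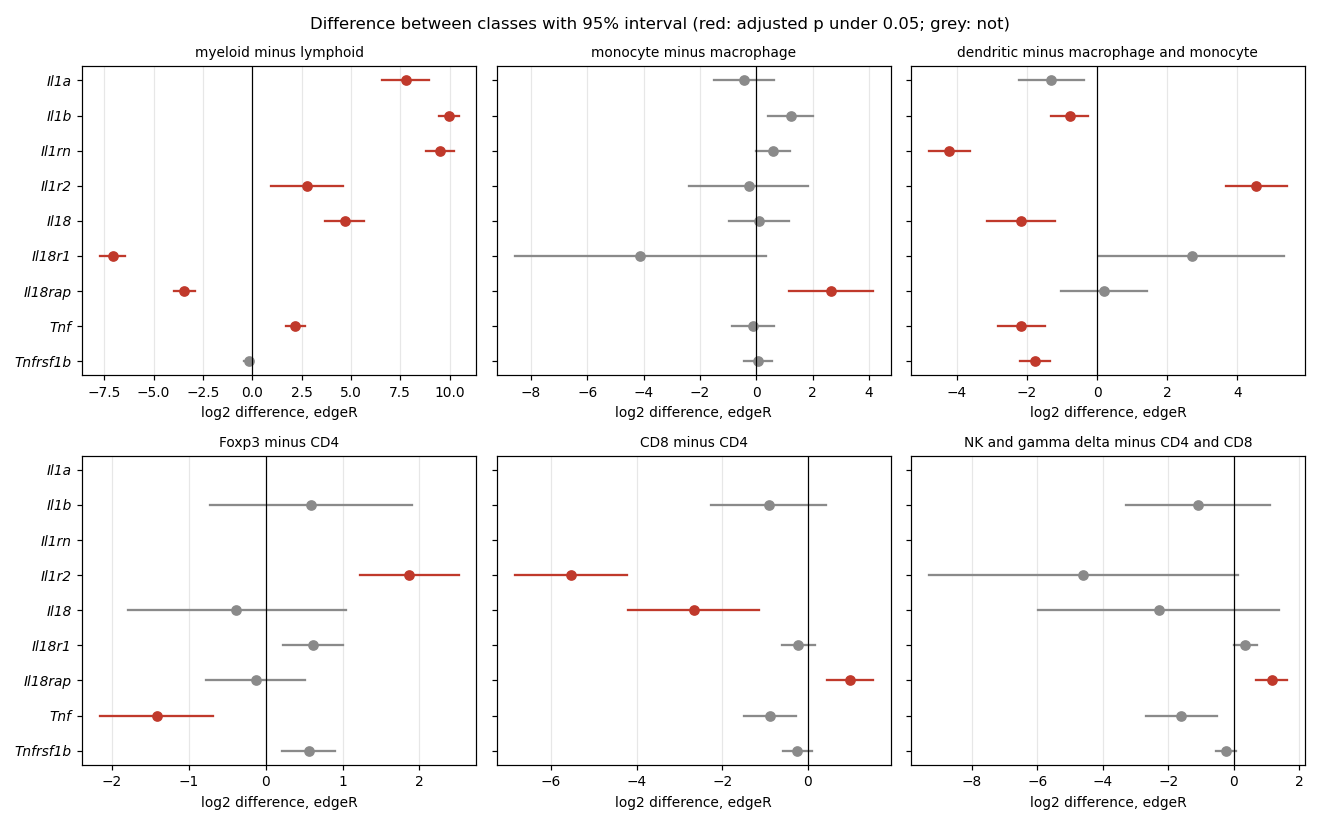
Log2 difference of each gene between classes in the edgeR fit (points) with its 95% interval (lines), for the 6 comparisons, each panel on its own scale. Red marks an adjusted p under 0.05 over all 10212 genes and grey the rest, and genes with fewer than 10 UMIs over both arms are left blank. The Il1r2 point lies far to the right for dendritic cells and for Foxp3 cells and far to the left for CD8 cells.

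Few of the 9 genes passed the test between monocytes and macrophages, a comparison with little power. Library 2 alone held both, with 1960 against 856 CPM of Il1b and 419 against 207 CPM of Il1rn. Il1b gave a difference of 1.22 (95% interval 0.41 to 2.03, edgeR, adjusted p = 0.081), which passed in 4 of 10 alternative fits, and Il1rn gave 0.60 ± 0.31 (SE, adjusted p = 0.31). Il18rap alone passed, at 2.65 ± 0.76 (SE, adjusted p = 0.032) on 12 and 13 UMIs, and it no longer passed without the library block (adjusted p = 0.15) or without library 3 (adjusted p = 0.074). That is 1 of 9 genes higher in monocytes and 0 lower, beside 2.43% and 3.44% of all genes tested (DESeq2 3.25% in either direction). For Tnf and Tnfrsf1b the intervals, -0.87 to 0.64 and -0.42 to 0.55, left room for differences in either direction. In simulated counts this comparison recovered 13% of genes changed by 1 on the log2 scale and 92% of those changed by 2, so moderate differences would mostly be missed. The changed genes were drawn above a minimum macrophage level. Il1r2, Il18r1 and Il18rap, at 1.88, 0.904 and 0.979 CPM in macrophages, lay below it, so these rates do not cover them.

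As a class, dendritic cells carried a distinct set: they kept Il1b, held the decoy receptor Il1r2 and had little Il1rn. Il1r2 was at 77.1, 41.0 and 94.2 CPM in dendritic cells and at 0, 3.21 and 0 CPM in monocytes and 1.88 CPM in macrophages. The difference was 4.54 ± 0.44 (SE, log2, edgeR, adjusted p = 3.2e-09, higher in 3 of 3 libraries). Without library 2 and the macrophages it was 9.13 (adjusted p = 4.8e-07), a fit against monocytes with 0 Il1r2 UMIs. Against macrophages and monocytes together, Il1rn was lower by -4.21 ± 0.30 (adjusted p = 1.4e-11), Tnf by -2.16 ± 0.34 (adjusted p = 1.1e-05), Tnfrsf1b by -1.76 ± 0.21 (adjusted p = 8.2e-08) and Il18 by -2.16 ± 0.49 (adjusted p = 0.0012). Il1b was lower by only -0.78 ± 0.26 (adjusted p = 0.028), a call lost without library 3 (adjusted p = 0.16), without the library block (adjusted p = 0.59) and with DESeq2 (adjusted p = 0.25). In all, 1 of the 9 genes was higher and 5 were lower, where 12.2% of genes tested were higher and 13.7% lower (DESeq2 20.4% in either direction). With macrophages left out all 6 kept their calls, and Il1b then differed by -1.38 (adjusted p = 2.4e-04). Without library 2 as well, Il18 lost its call (-1.54, adjusted p = 0.20), as it did with DESeq2 (adjusted p = 0.072).

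Dendritic cells held Il1b at a larger share of the monocyte level than Lyz2. Lyz2 was at 175 to 267 CPM in dendritic cells and 5721 to 9732 CPM in monocytes, while Il1b was at 242 to 1804 CPM in dendritic cells and 1408 to 4632 CPM in monocytes. Thinned to 1000 UMIs per cell, 44.2%, 41.1% and 25% of dendritic cells held an Il1b UMI, against 76.8%, 46.5% and 40.7% of monocytes and 32.8% of library 2 macrophages. The same share was at most 0.642% in CD4 cells, 0.345% in Foxp3 cells and 0 in NK cells. At that depth the tenth of cells with the most Il1b held 60% of its UMIs in library 2 macrophages, 47.9% in the monocytes and 59.9% in the dendritic cells of that library, and for Il1rn the share was 85.0% in macrophages and 62.7% in monocytes.

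Taken over the whole class, the balance of Il1b to its antagonist separated dendritic cells from the other myeloid cells. Per Il1rn UMI, monocytes held 8.41, 4.68 and 3.13 Il1b UMIs in libraries 1, 2 and 3, and library 2 macrophages held 4.14. Dendritic cells held 39.3 (95% interval 26.5 to 61.1) in library 1 and 106 (70.2 to 167) in library 2. Dendritic cells of library 3 had 18 Il1b UMIs and 1 Il1rn UMI, too few for a ratio. In each of the libraries with a ratio, the intervals of dendritic cells and monocytes did not overlap. The intervals cover counting error only, and since capture differs between genes the ratio is read between classes and not as a ratio of molecules.

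**Figure D3:**
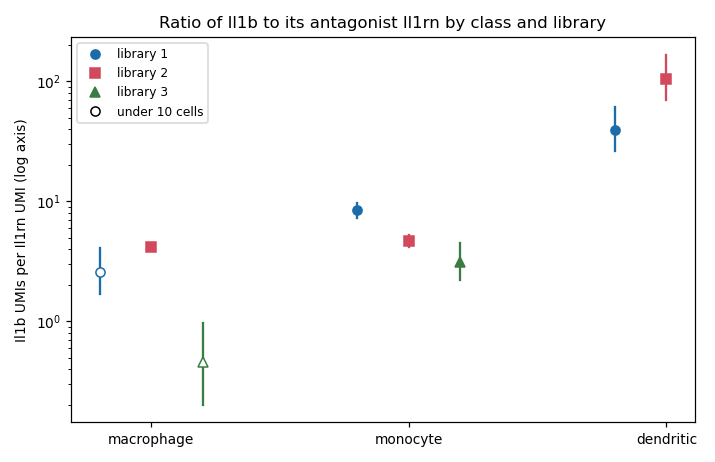
Il1b UMIs per Il1rn UMI (log axis) in the myeloid classes of each library, with 95% counting intervals and open symbols for groups under 10 cells. Dendritic cells of libraries 1 and 2, at 39.3 and 106, sit above every monocyte and macrophage value.

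Within dendritic cells the genes were not spread alike. In library 2, the largest set, 89 type 1 cells (Xcr1 or Clec9a), 14 type 2 cells (Cd209a), 32 mature cells (Fscn1 and Ccr7) and 57 in no subset could be compared as single sums, without a test. Il1b was at 757 CPM (95% interval 707 to 809) in type 1 cells, 3434 CPM (3049 to 3854) in type 2 cells and 958 CPM (850 to 1076) in mature cells. Tnf was at 7.97 CPM (3.64 to 15.1) in type 1 cells, 119 CPM (57.2 to 219) in type 2 cells and 134 CPM (95.7 to 183) in mature cells. Il18 had another pattern: all 18 Il18 UMIs of dendritic cells, over 3 libraries, lay in type 1 cells, which held 58.8% of the UMIs of the class. In library 2 the counting intervals of the subsets overlapped for Il18. Il1r2 was at 82.1 CPM in the cells of no subset and 29.2 CPM in type 1 cells of library 2, and at 113 and 67.4 CPM in library 1. In library 3 the order was the other way, at 90.1 and 108 CPM from 3 and 4 UMIs. Tnfrsf1b was at 101 CPM in mature cells and 21.2 CPM in type 1 cells of library 2. Il1rn was at 40.2 CPM (20.8 to 70.2) in mature cells and 5.31 CPM (1.95 to 11.6) in type 1 cells of that library. In library 1 it was at 170 CPM from 3 UMIs and 51.9 CPM from 20 UMIs, with overlapping intervals. Mature cells held 34 Il1b and 3 Il1rn UMIs in library 1, and 286 and 12 in library 2. Over the 3 libraries they held 30.6% of the Il1rn UMIs and 12.1% of all UMIs of the class.

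**Figure D4:**
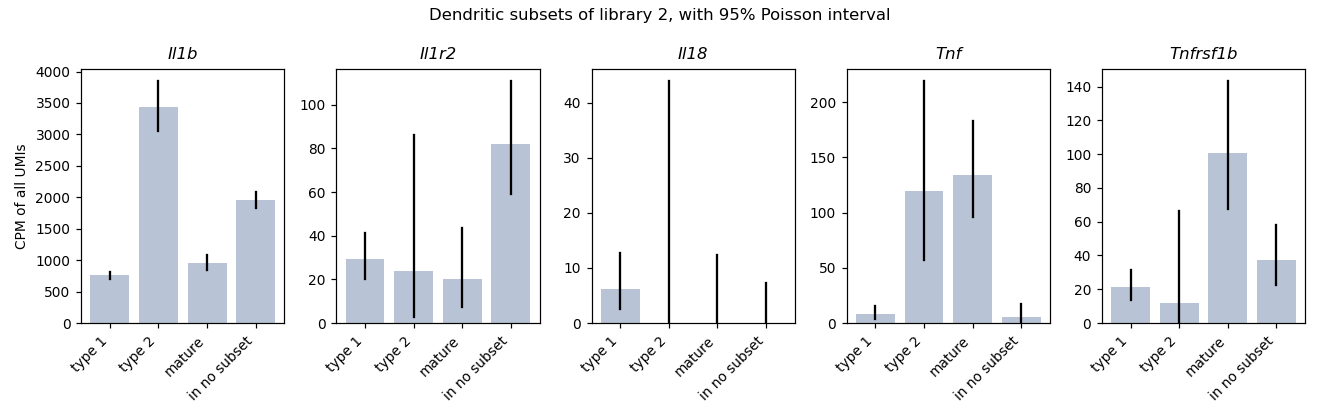
CPM of 5 genes in the dendritic subsets of library 2, with 95% Poisson intervals and each panel on its own scale from 0. Type 2 cells lead for Il1b at 3434 CPM, mature and type 2 cells for Tnf, all Il18 UMIs are in type 1 cells, and mature cells lead for Tnfrsf1b at 101 CPM.

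Among T cells, Il1r2 was highest in Foxp3 cells. It was at 69.8, 54.4 and 92.8 CPM in Foxp3 cells and at 9, 22.2 and 21.0 CPM in CD4 cells, and the groups did not overlap. The difference was 1.87 ± 0.33 (SE, log2, edgeR, adjusted p = 5.7e-04, higher in 3 of 3 libraries), and fell short of the threshold without library 1 (1.42, adjusted p = 0.054) and without the library block (1.93, adjusted p = 0.074). With stricter gates it was 3.14 (adjusted p = 7.7e-06). The level of Foxp3 cells was close to that of dendritic cells, with means of 72.3 ± 19.3 and 70.8 ± 27.2 CPM (SD, n = 3 each). Few cells carried it: 18 of 304, 31 of 316 and 6 of 82 Foxp3 cells had an Il1r2 UMI, and after thinning the shares were 2.41%, 2.27% and 5.71%. CD8 cells held 2 Il1r2 UMIs in all, and the CD8 minus CD4 difference was -5.54 ± 0.67 (adjusted p = 7.9e-07). No Il1r2 UMI was counted in NK or gamma delta cells.

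Foxp3 cells with an Il1r2 UMI were described further, with no test, since they were picked by that gene and were deeper. Their median depth was 6780.5, 8475 and 3683 UMIs, against 3198.5, 2419 and 1816 in the other Foxp3 cells. Il2ra, the high-affinity IL-2 receptor chain of regulatory T cells, was at 404, 311 and 320 CPM in them and at 228, 265 and 175 CPM in the others. The counting intervals of Il2ra overlapped in libraries 2 and 3. Ctla4 was lower in them, at 1588, 1345 and 1031 CPM against 2441, 2073 and 1742 CPM. Ikzf2 was lower too, at 527, 346 and 533 CPM against 698, 446 and 723 CPM, with overlapping intervals in each library. The 12, 19 and 3 CD4 cells with Il1r2 held Ikzf2, a regulatory T cell factor, at 403.1, 249.2 and 223.5 CPM, above 191, 110 and 158 CPM in the other CD4 cells. In library 3 the counting intervals overlapped, at 72.6 to 522 and 117 to 208 CPM. Other regulatory T cell genes did not all follow: Il2ra was at 33.6, 156 and 179 CPM in these CD4 cells against 65.7, 63.0 and 25.7 CPM in the others, and Ctla4 at 1663, 850 and 1564 CPM against 1639, 1081 and 814 CPM. How many of these cells express Foxp3 below detection was not tested.

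The remaining differences of Foxp3 cells from CD4 cells were less firm. Tnf was lower than in CD4 cells by -1.41 ± 0.38 (SE, log2, edgeR, adjusted p = 0.031), but the order held in 2 of 3 libraries, at 14.6 against 63.5 CPM, 24.9 against 56.5 CPM and 36.1 against 24.0 CPM. This call was lost in 7 of 11 alternative fits, including those without library 1 (adjusted p = 0.44), without library 3 (0.053), without the library block (0.53) and with DESeq2 (0.45). Tnfrsf1b was at 347, 181 and 201 CPM in Foxp3 cells and 207, 117 and 147 CPM in CD4 cells, higher in 3 of 3 libraries. Its difference, 0.56 (95% interval 0.21 to 0.90), had an adjusted p of 0.087 in edgeR and 0.017 in DESeq2. Il18r1 was at 155, 127 and 191 CPM in Foxp3 cells and 116, 84.7 and 69.0 CPM in CD4 cells, with a difference of 0.61 (0.22 to 1.01, adjusted p = 0.12). At 1000 UMIs per cell, 14.9% ± 0.785 of Foxp3 cells and 9.23% ± 2.39 of CD4 cells held an Il18r1 UMI (SD, n = 3 each). Here 1 of the 9 genes was higher and 1 lower, beside 1.62% and 1.41% of genes tested (DESeq2 2.59% in either direction).

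CD8 cells differed from CD4 cells in the second IL-18 receptor chain rather than the first. Il18rap was at 60.7, 50.4 and 39.4 CPM in CD8 cells and 41.0, 20.4 and 27.0 CPM in CD4 cells, a difference of 0.98 ± 0.27 (SE, log2, edgeR, adjusted p = 0.018, higher in 3 of 3 libraries). The call was lost without library 2 (adjusted p = 0.28), without the library block (0.46) and with DESeq2 (0.36). Il18r1 was at 84.1, 71.8 and 59.2 CPM in CD8 cells, with a difference of -0.22 (95% interval -0.61 to 0.16). Il18 itself, at 0 to 0.879 CPM in CD8 cells and 3.37 to 6 CPM in CD4 cells, differed by -2.66 ± 0.78 (adjusted p = 0.029) on 5 and 20 UMIs, and no fit that left out a library kept this call (adjusted p = 0.090 to 0.17). Tnf gave -0.88 (-1.49 to -0.28, adjusted p = 0.084), lower in 3 of 3 libraries. In this comparison 1 of the 9 genes was higher and 2 were lower, beside 3.25% and 4.66% of genes tested (DESeq2 5.59% in either direction).

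NK cells had the highest Il18rap in libraries 1 and 2, and CD8 cells, at 39.4 CPM, lay just above them in library 3. NK cells held it at 237, 166 and 36.8 CPM, the last from 2 UMIs in 16 cells. Gamma delta cells held Il18rap at 19.3 and 51.6 CPM in libraries 1 and 2. In library 1 they lay below CD4 cells (41.0 CPM) and CD8 cells (60.7 CPM). In library 2 they lay near CD8 cells (50.4 CPM) and above CD4 cells (20.4 CPM). NK and gamma delta cells together exceeded CD4 and CD8 cells by 1.15 ± 0.24 (SE, log2, edgeR, adjusted p = 0.0011), the 1 of 9 genes that passed, where 4.37% of genes tested were higher and 6.84% lower (DESeq2 10.2% in either direction). Without library 2 the difference was 0.26 (adjusted p = 0.88), and with DESeq2 it was 0.99 (adjusted p = 0.061). Il18r1 was at 202, 127 and 111 CPM in NK cells, and its difference was 0.35 ± 0.18 (adjusted p = 0.26). Tnf gave -1.60 (95% interval -2.68 to -0.52, adjusted p = 0.057), which joins NK cells near 0 with gamma delta cells at 33.8 and 82.3 CPM, and it passed without library 2 (-4.23, adjusted p = 0.0013).

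The share of Il18rap in the UMIs of both receptor chains ordered the lymphoid classes. In library 1 it was 19.4% (95% interval 14.6 to 25) in Foxp3 cells, 26.2% (21.1 to 31.7) in CD4 cells, 41.9% (37.9 to 46.0) in CD8 cells and 54.0% (46.0 to 61.9) in NK cells. Library 2 gave 16.8%, 19.4%, 41.3% and 56.6% in the same order. Foxp3 and CD4 cells had overlapping intervals in both libraries, and CD8 cells lay above both. Library 3 had 2.63% in Foxp3 cells, 28.1% in CD4 cells and 40.0% in CD8 cells, and too few NK UMIs to be read. Gamma delta cells differed between libraries, at 16.0% (4.54 to 36.1) and 46.8% (35.5 to 58.4).

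**Figure D5:**
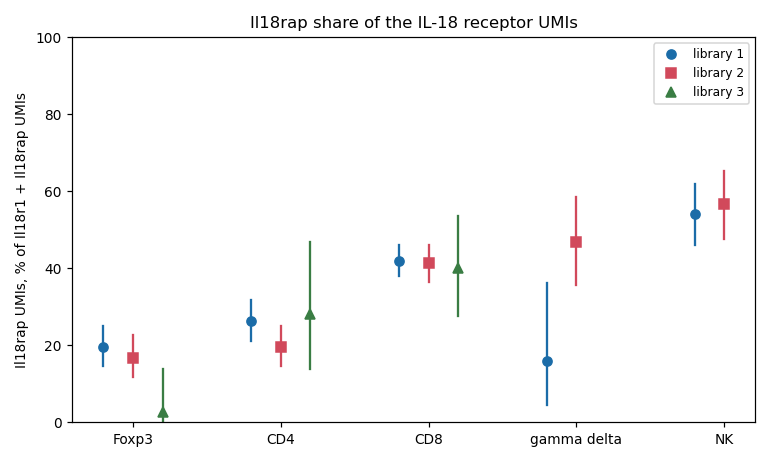
Il18rap UMIs as a percent of Il18r1 plus Il18rap UMIs in each lymphoid class and library, with exact 95% binomial intervals, for sums with at least 10 such UMIs. The share is 16.8% to 28.1% in CD4 cells and in the Foxp3 cells of libraries 1 and 2, 2.63% in the Foxp3 cells of library 3, 40.0% to 41.9% in CD8 cells and 54.0% to 56.6% in NK cells.

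Other genes of the pathway were read from a list of 50, of which 47 were found by symbol and 41 were tested. In the myeloid classes 19 of the 41 were higher and 5 lower, where 27.8% and 25.9% of all genes tested were. Nlrp3, the sensor of the main inflammasome, was higher by 9.41 ± 0.31 (SE, log2, edgeR, adjusted p = 1.2e-19), while Casp1 was not called. Il18bp, the soluble IL-18 inhibitor, was higher by 5.80 ± 0.23 (adjusted p = 4.7e-20) and reached 436 CPM in library 2 macrophages, and it was lower in monocytes than macrophages by -1.81 ± 0.28 (adjusted p = 4.8e-05). Of the response genes, the chemokine Cxcl2 and the prostaglandin enzyme Ptgs2 were higher in myeloid classes by 8.29 and 9.30, and Tnfaip3, an inhibitor of NF-κB, was lower by -1.37 (adjusted p = 8.1e-10). Sigirr, a negative regulator of the family, was lower by -2.89 and Tnfrsf1a, the other TNF receptor, was higher by 2.37. The signalling receptor Il1r1 was scarcely counted, with 8 UMIs over all myeloid sums and 21 over all lymphoid sums.

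Dendritic cells were lower than macrophages and monocytes in 19 of the 41 genes and higher in 2, where 13.7% of all genes tested were lower and 12.2% higher. Among these, 9 of 11 response genes were lower, including Cxcl2 (-5.83), Sod2 (-2.34) and Ptgs2 (-2.08), as were 6 of 8 processing genes, including Nlrp3 (-1.95 ± 0.22, adjusted p = 1.3e-07), Casp1 (-0.99) and Adam17 (-1.95), the protease that releases TNF. The median of the 41 genes was -0.63 and that of all genes -0.03. In the T cell comparisons 1 was higher and 2 were lower in Foxp3 cells (1.62% and 1.41% of all genes), and 4 were higher and 7 lower in CD8 cells (3.25% and 4.66% of all genes). In CD8 cells Nfkbiz (-1.87) and Nfkbia (-1.28), both induced by NF-κB, were lower, Ccl4 (1.76) and Ccl3 (1.57) were higher, and Il1rl1, the IL-33 receptor, was lower (-2.96 ± 0.74, adjusted p = 0.0094). In NK and gamma delta cells 2 were higher, Irak2 (1.80 ± 0.20, adjusted p = 4.6e-08) and Tnfrsf1a (1.08), and 2 were lower, Ccl3 (-1.77) and Casp4 (-0.90), where 4.37% and 6.84% of all genes tested were, so that neither count is a result about the list.

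The genes whose pattern over the 24 class and library sums was most like each of the 9 were listed by Pearson's r of log2(CPM + 1) among 5488 genes with a mean of at least 20 CPM, as a description. Il1b was closest to Psap, Csf2rb2 and Nlrp3, with r from 0.962 to 0.963. Il1rn was closest to Nupr1, Csf1r and Gm21188 (0.981 to 0.987), Il18 to Gda, Ifitm3 and Slc15a3 (0.879 to 0.880) and Il1a to Man2b1, P2ry6 and Slamf8 (0.886 to 0.917). Il18r1 was closest to Skap1, Sh2d1a and Cd27 (0.957 to 0.971) and Il18rap to Ms4a4b, Emb and Dok2 (0.850 to 0.874). Il1r2 had no close partner beyond Vrk1 at 0.826, Btla at 0.733 and Dapp1 at 0.725. Tnf was closest to Aldoa, Dnase1l1 and Mcur1 (0.825 to 0.835) and Tnfrsf1b to Lcp2, Fosl2 and Fyb (0.832 to 0.891). Sums of 1 library share its depth and preparation, so these values are not independent.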

How the data were processed

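The deposited values are unnormalized UMI counts, made by the authors from 5′ reads on mm10 with Cell Ranger (5.0.1 for library 1, 6.1.2 for libraries 2 and 3, per the file headers), which collapses PCR copies. Library 1 came with no gene list among the files used here, and the row order of the others was used (Spearman correlation of row totals 0.9501 and 0.9287, across genes). Cells with under 300 UMIs, over 5000 genes or over 20% mitochondrial UMIs were left out, which left 13637 cells. No doublet caller was run, and cells with markers of 2 lineages entered no class. Barcodes shared between libraries numbered 36, 7 and 14. Depth was 22983991, 55120460 and 3399733 UMIs.

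Class counts were summed per library (at least 10 cells) and tested with edgeR 4.0.16 (quasi-likelihood test, TMM, low counts filtered, library as a block since the classes of a library come from the same mice, B cells kept in the fit) in R 4.3.3, with Benjamini-Hochberg adjustment over 10212 genes and a threshold of 0.05. P-values rest on the residual spread of the 24 class and library sums in 1 fit, pooled over all classes and partly shared across genes. They do not measure the spread of a single difference over the 3 libraries. Macrophages gave 1 sum and gamma delta cells 2. DESeq2 1.42.0 was an alternative, beside other filters, gates, scaling, thinning and omitted libraries. Differences with fewer than 10 UMIs over both arms are not given. Shares were compared at 1000 UMIs per cell. The script was tested on simulated data. The text names the 9 genes, the genes of the pathway list and the 3 genes most like each. The 9 genes, the lists, the motifs and the gate limits were chosen with earlier results of these data known. Intervals are 95% exact Poisson or binomial intervals and cover counting error only, and those of log2 differences are 1.96 SE.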

Additional observations from a re-analysis of the deposited data

Results flagged for a closer look

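About as many of the UMIs of the 9 genes lay in cells outside every class as inside. The share outside was 45.3% for Il1a, 50.4% for Il1b, 40.4% for Il1rn, 64.7% for Il1r2, 46.0% for Il18, 56.0% for Il18r1, 56.9% for Il18rap, 50.3% for Tnf and 52.7% for Tnfrsf1b, where 47.5% of cells were outside. Cells with markers of 2 lineages, 20.1% of all cells, held 38.6% of the Il1b UMIs. These cells were not used in any comparison, and whether they are doublets was not tested.

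Cells with at least 3 UMIs of Siglech, a plasmacytoid dendritic cell gene, and no T or B cell genes beyond 1 UMI had Tnf at 226 CPM in library 1 (54 cells, 95% interval 188 to 269), 19.7 CPM in library 2 (112 cells, 10.5 to 33.7) and 103 CPM in library 3 (5 cells, 2 UMIs). In library 1 the Tnf came from 15 cells, the highest with 27 UMIs. Ccr9 was at 972, 617 and 927 CPM in these cells. The difference between libraries was not tested.

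Myeloid cells that met no class had Il1r2 at 85.4 CPM in library 1 (13 cells), 150 CPM in library 2 (216 cells, 95% interval 131 to 171) and 11.9 CPM in library 3 (37 cells, 1 UMI). In library 2 it lay in 38 cells, and S100a9, a neutrophil gene, was at 10.9 CPM there, while in library 1 it was at 973.5 CPM from 1 cell. The dendritic class of library 2 held Il1r2 at 41.0 CPM.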

How the results depend on the processing

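Of 527 alternative values for the log2 differences of single genes, 453 kept their direction and side of the threshold, 37 fell short of it, 18 newly passed it and 19 changed direction. None of those that changed direction passed the threshold in either setting. Myeloid minus lymphoid Tnfrsf1b was 0.02 with stricter gates. Monocyte minus macrophage Il1r2 was 0.37 with stricter gates, 0.02 with thinned cells and -0.09 to 0.20 with a library left out, Il18 was -0.39 to 0.16 with a library left out, Tnf was 0.15 without the TMM factor, and Tnfrsf1b was -0.04 with thinned cells and -0.10 to 0.10 with a library left out. Dendritic minus macrophage and monocyte Il18rap was -1.72 with stricter gates, -0.91 with thinned cells, -1.15 with macrophages left out and -0.92 to 0.33 with a library left out. That range includes the fit without library 2 and the macrophages. Fits without macrophages compare dendritic cells with monocytes alone. Foxp3 minus CD4 Il1b was -2.11 with stricter gates, -1.24 with thinned cells and -4.83 to 1.30 with a library left out, and Il18rap was 0.02 with thinned cells and -0.39 to 0.03 with a library left out. CD8 minus CD4 Il1b was 1.25 with looser gates.

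The number of genes called, 5485, 599, 2649, 309, 808 and 1144 in the order of the comparisons in the report, moved by more than 1.5 times in these cases. Without the replicate block, which drops the pairing of classes by library, it was 132 for monocyte minus macrophage, 1438 for dendritic, 45 for Foxp3 minus CD4, 301 for CD8 minus CD4 and 674 for NK and gamma delta. Stricter gates gave 1736 for dendritic, 179 for Foxp3 minus CD4 and 603 for NK and gamma delta. Thinned cells gave 1424 for dendritic and 735 for NK and gamma delta. DESeq2 gave 332 for monocyte minus macrophage, and no filter on low counts gave 471 for Foxp3 minus CD4. With a library left out the counts were 3293 to 5701, 302 to 464, 1118 to 2660, 105 to 268, 371 to 683 and 674 to 1039. The first and the third of these lows left out both library 2 and the macrophages, an alternative added after seeing the data, as was leaving out macrophages alone. No value without library 2 exists for the comparisons with macrophages in them. The cause of these changes was not tested, apart from the smaller number of sums and cells by construction.

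The share of cells with a UMI depended on depth. Foxp3 cells with Il1r2 were 7.68% without thinning and 3.47% at 1000 UMIs, NK cells with Il18rap 39.9% and 15.5%, and Foxp3 cells with Tnfrsf1b 45.8% and 21.1%, or 12.6% at 500 UMIs. Left-out libraries gave 2.34% to 4.06%, 11.3% to 23.2% and 16.8% to 23.8% for the same shares. Library 3 was the shallowest, and a 0 there limits the level least.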
